A study of Mus musculus with 8 samples.

Results

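Most of the 40 genes described here encode proteins of the stromal extracellular matrix and proteins that fibroblasts secrete. The others encode surface proteins, such as Pdgfra and Cdh11, or intracellular proteins, such as Cryab. They are 40 of the 45232 gene names in the deposited table, and all 40 were found by name. They were chosen on the contrast of Id2-deficient against wild-type (WT) mice in CD4+ CD25+ T cells of visceral adipose tissue. Most were higher in the Id2-deficient libraries, but for 12 members the genotypes overlapped. That contrast is therefore a description, and where the fit's calls for it are counted they are not evidence about the members. Decorin (Dcn), Igfbp6 and Efemp1 were the marker genes given with the list.

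The study measured RNA in CD4+ CD25+ T cells, a gate rich in regulatory T cells, of C57BL/6 mice. The 4 groups were WT cells from visceral adipose tissue, Id2 CKO (KO) cells from the same tissue, WT cells from spleen and KO cells from spleen, with 2 libraries in each. All groups share the strain, the sort gate with a minimum of 500 cells, the cDNA kit for very low input and the library kit. The libraries of each group are numbered 2 and 3, which the file headers call experiments. The sources used here do not give the Cre line or other driver behind the deletion, or the age, sex and treatment of the animals. They also do not say whether 2 libraries of a group stem from different animals, so p-values measure only how far these libraries differ, which may be technical.

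Fibroblasts build the loose connective tissue of fat depots. They secrete collagens, small leucine-rich proteoglycans that coat collagen fibrils, fibulins that join elastic fibres and basement membranes, and binding proteins for insulin-like growth factors (IGFs). Basement membranes around vessels and fat cells are built on type IV collagen, and the surface of visceral fat is covered by mesothelium, an epithelium that shares many of these products. T cells are not a usual source of these matrix proteins. Id2 binds E-protein transcription factors and keeps them off DNA, where they recognise the E-box, CANNTG.

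Levels are given as TPM, a share of all transcripts, which correct for transcript length, so levels of different genes can be set side by side. These shares do not hold the number of reads, so depth is unknown, and a value of 0 is called listed at 0. In bulk RNA, fewer cells of a type and less RNA per cell cannot be told apart.

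Several libraries stood apart. Id2 was at 1298 to 3679 TPM in adipose tissue and at 72.1 to 346 TPM in spleen, and was lower in both KO libraries than in both WT libraries of each tissue. Foxp3, the lineage factor of regulatory T cells, had only 7.40 TPM in KO adipose 2 and, in KO spleen 2, 8.27 TPM, whereas the other 6 libraries held 93.5 to 266 TPM. KO adipose 3 had the most genes above 0 (20684) and KO adipose 2 the fewest (13184). Results are given with and without these libraries where they change.

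The promoters of the IGF binding proteins are shown because these 4 members followed different patterns in the same libraries. The sequences are the 250 bases before the gene start from RefSeq (GRCm38.p6), 5′ to 3′ on the gene's strand, and capitals mark CANNTG, which reads the same on both strands. The versions CAGGTG and CACCTG are also counted as CANNTG.
Igfbp4 (chr11:99040994-99041243, plus strand): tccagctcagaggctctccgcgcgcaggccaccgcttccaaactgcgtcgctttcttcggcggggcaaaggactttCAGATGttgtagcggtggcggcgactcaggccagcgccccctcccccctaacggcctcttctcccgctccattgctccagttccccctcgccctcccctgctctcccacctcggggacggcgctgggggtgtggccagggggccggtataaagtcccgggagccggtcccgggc
Igfbp5 (chr1:72874866-72875115, minus strand): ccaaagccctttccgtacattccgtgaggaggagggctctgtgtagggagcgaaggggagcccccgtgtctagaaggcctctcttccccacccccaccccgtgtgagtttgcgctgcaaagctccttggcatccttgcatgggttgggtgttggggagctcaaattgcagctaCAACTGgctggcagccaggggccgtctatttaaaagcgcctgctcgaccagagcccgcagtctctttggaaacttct
Igfbp6 (chr15:102143936-102144185, plus strand): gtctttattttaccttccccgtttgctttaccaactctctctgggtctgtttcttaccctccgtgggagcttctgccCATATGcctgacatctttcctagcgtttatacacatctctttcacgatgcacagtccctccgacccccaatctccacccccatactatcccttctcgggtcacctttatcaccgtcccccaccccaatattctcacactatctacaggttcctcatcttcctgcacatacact
Igfbp7 (chr5:77408046-77408295, minus strand): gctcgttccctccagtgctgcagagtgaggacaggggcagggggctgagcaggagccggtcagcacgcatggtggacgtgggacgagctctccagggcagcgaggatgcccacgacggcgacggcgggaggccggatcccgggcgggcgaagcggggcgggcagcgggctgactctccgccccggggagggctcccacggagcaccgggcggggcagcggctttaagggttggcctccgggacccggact

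In RefSeq 29 of the 40 members had such windows, 35 in all. At least 1 CANNTG was found in 24 of the 35 (68.57%), against 66.22% of all 32851 windows of this length. CAGGTG or CACCTG was found in 6 of the 35 (17.14%), against 17.22% of all windows. These shares in the members lay near those over all genes. CAGCTG, a further version of CANNTG, was found in 8 of the 35 (22.86%), against 13% of all windows, so its share was higher in the members. The difference was not tested, and a match is not a binding site.

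Col4a1 and Col4a2, the 2 chains of the common form of type IV collagen, are shown by the short stretch that joins them. They are transcribed from opposite strands, and their RefSeq starts lay 21 bases apart, at 11312826 for Col4a1 and 11312805 for Col4a2 on chromosome 8. The plus-strand bases from one start to the other read as follows.
Col4a2 to Col4a1 (chr8:11312805-11312826, plus strand): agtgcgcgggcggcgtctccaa

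In adipose tissue the summed level of the 40 members was 251 and 314 TPM in WT adipose 2 and 3, and 1770.1 and 7299 TPM in KO adipose 2 and 3. In spleen it was 99.5 and 67.3 TPM in the WT and 36.3 and 58.9 TPM in the KO libraries. At least 1 TPM was reached by 30 and 39 of the 40 members in KO adipose 2 and 3, by 8 and 15 in the WT adipose libraries, and by 5 or 6 in each spleen library. Both KO adipose libraries were thus high, and the spleen libraries of both genotypes were low.

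**Figure D1:**
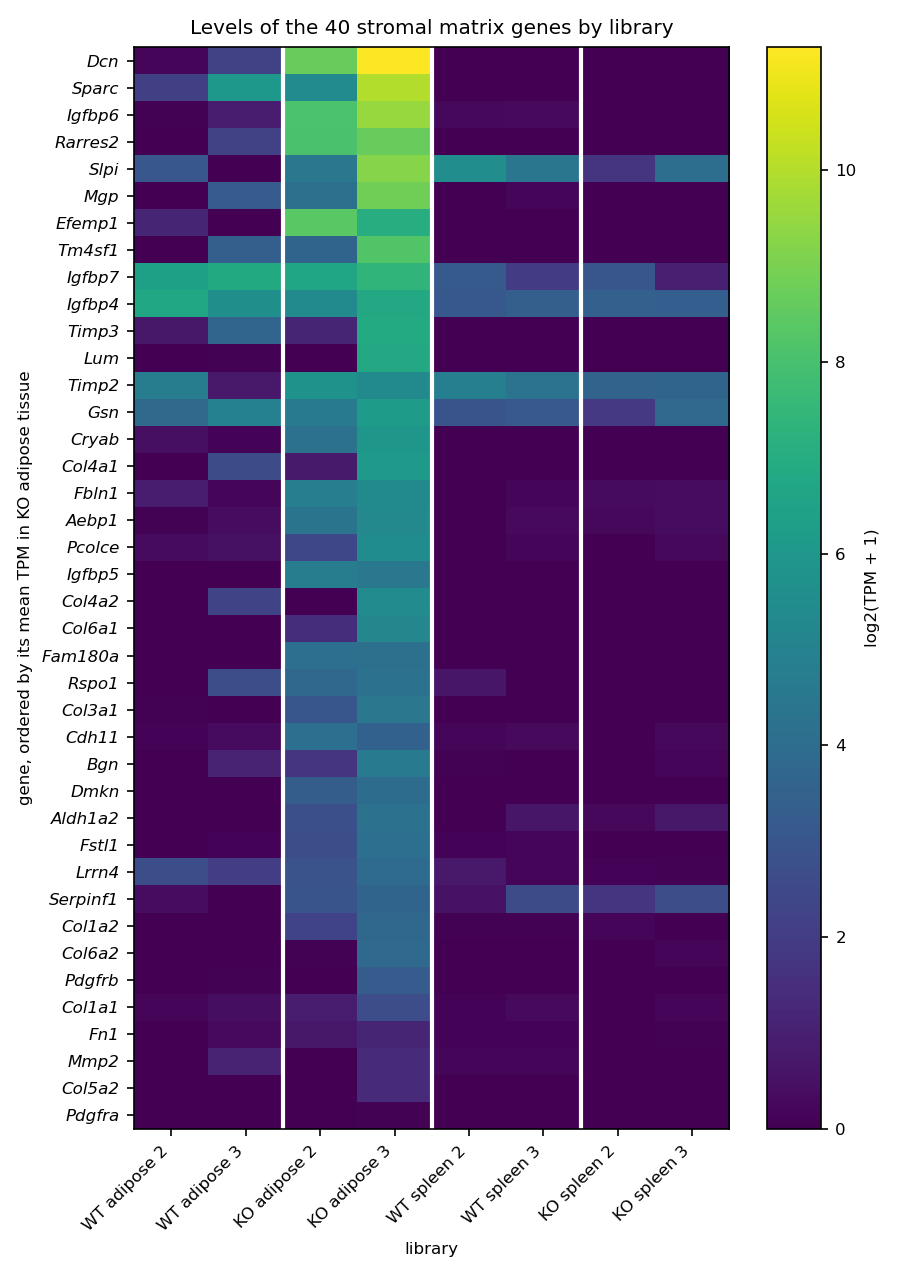
Level of each of the 40 members (rows, ordered by mean TPM in KO adipose tissue) in each of the 8 libraries (columns), as log2(TPM + 1). The KO adipose columns are bright from Dcn down the list. In the WT adipose and spleen columns mainly Igfbp7, Igfbp4, Timp2, Gsn and Slpi stand out, except in WT adipose 3. There Sparc, at 62.9 TPM, is bright, while Timp2 and Slpi, at 0.698 and 0 TPM, are dark.

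For 28 of the 40 members both KO adipose libraries lay above both WT adipose libraries, for none did they lie below, and for 12 the groups overlapped. Of the 28, 25 had been tested. Over all 13376 tested genes, 7.66% lay above and 27.5% below in this way. The median log2 fold change of the members on the log2(TPM + 1) scale was 3.36, and 3.10 without the 7 members listed at 0 in both WT adipose libraries. Over all tested genes it was -0.27. In the fit, 11 of the 33 members that passed the filter of 1 TPM in at least 2 libraries were called higher (adjusted p below 0.05), against 0.277% of all tested genes called higher and 0.00748% called lower. Since the members were picked for this contrast, nothing is read from these shares. Without KO adipose 2, 40 members lay above both WT libraries, and without KO adipose 3, 28.

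The filter left out 7 members, Col1a1, Col5a2, Col6a2, Lum, Pdgfra, Pdgfrb and Fn1. Pdgfra reached 1 TPM in no library and the other 6 reached it only in KO adipose 3. All 7 are described by their levels below.

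Small leucine-rich proteoglycans held the highest member. Dcn, which binds fibrillar collagen, was at 404 and 2493 TPM in KO adipose 2 and 3, at 0.101 and 3.58 TPM in WT adipose 2 and 3, and at or under 0.0284 TPM in the 4 spleen libraries. The KO adipose libraries did not overlap any other library, and Dcn made up 22.8% and 34.2% of the members' summed level there. Biglycan (Bgn) followed at a lower level, with 2.33 and 24.2 TPM in the KO and 0.0119 and 1.20 TPM in the WT adipose libraries. Lumican (Lum) behaved otherwise. It was at 109.9 TPM in KO adipose 3 and listed at 0 in KO adipose 2, with 0 and 0.0375 TPM in WT adipose 2 and 3.

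The 2 fibulins summed to 360.1 and 168 TPM in KO adipose 2 and 3, the reverse of the order seen for the proteoglycans. Efemp1 (fibulin-3) was at 333 and 128 TPM in KO adipose 2 and 3, at 1.25 and 0 TPM in WT adipose 2 and 3, and listed at 0 in all 4 spleen libraries. Fbln1 was at 27.2 and 39.95 TPM in the KO and 0.803 and 0.125 TPM in the WT adipose libraries. Both genes separated the genotypes in adipose tissue.

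Fibrillar collagen chains were low even where the proteoglycans were high. Col3a1 was at 7.14 and 21.3 TPM in KO adipose 2 and 3, against 0.0474 and 0 TPM in the WT adipose libraries. Col1a2 was at 3.86 and 12.6 TPM against 0 and 0.0192 TPM. Col1a1, its partner chain in type I collagen, was at 0.855 and 5.39 TPM against 0.142 and 0.320 TPM. All 3 chains were higher in both KO adipose libraries, but the 4 fibrillar chains together made up 0.670% and 0.561% of the members' summed level in KO adipose 2 and 3. Col5a2 was at 1.64 TPM in KO adipose 3 and at or under 0.0081 TPM elsewhere.

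The chains of type VI collagen, which forms beaded filaments around cells, were seen mainly in KO adipose 3. Col6a1 was at 1.77 and 36.8 TPM in the KO adipose libraries and Col6a2 at 0.0385 and 13.5 TPM, and WT adipose 2 and 3 listed both genes at 0. Type IV collagen overlapped between genotypes. Col4a1 was at 0.740 and 67.8 TPM in KO adipose 2 and 3, and at 0 and 5.07 TPM in WT adipose 2 and 3. Col4a2, which starts beside it as shown above, was at 0 and 42.5 TPM in the KO and 0 and 4.04 TPM in the WT adipose libraries. In both genotypes these basement membrane chains were under 1 TPM in experiment 2 and above it in experiment 3.

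Of the matrix glycoproteins and matricellular proteins, Sparc and Mgp were higher in experiment 3 than in experiment 2 within each genotype. Sparc, a collagen-binding matricellular protein, was at 42.3 and 1002 TPM in KO adipose 2 and 3, at 3.38 and 62.9 TPM in WT adipose 2 and 3, and listed at 0 in all spleen libraries. WT adipose 3 thus lay above KO adipose 2. Mgp, an inhibitor of matrix calcification, was at 17.0 and 449.8 TPM in the KO and 0 and 8.45 TPM in the WT adipose libraries, so its genotypes did not overlap. Fstl1 was at 5.63 and 16.6 TPM in the KO libraries and under 0.1 TPM in the WT adipose libraries. Fibronectin (Fn1) stayed low, at 0.641 and 1.27 TPM in the KO adipose libraries.

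Of the proteins that process or bind collagen, Aebp1 was at 19.6 and 39.3 TPM in KO adipose 2 and 3, against 0.0417 and 0.287 TPM in the WT adipose libraries. Pcolce, which speeds the trimming of procollagen, was at 4.37 and 44.5 TPM against 0.265 and 0.407 TPM. Neither passed 0.3 TPM in spleen.

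Proteases and inhibitors held members that were also present in WT cells. Timp2, an inhibitor of matrix metalloproteinases, was at 54.4 and 41.3 TPM in KO adipose 2 and 3, at 26.6 and 0.698 TPM in WT adipose 2 and 3, at 28.6 and 18.6 TPM in the WT spleen and at 11.0 and 11.5 TPM in the KO spleen libraries. Slpi, an inhibitor of leukocyte proteases, was at 21.7 and 601 TPM in KO adipose 2 and 3, and at 7.49 and 0 TPM in WT adipose 2 and 3. In spleen Slpi was at 45.7 and 20.3 TPM in the WT and 2.32 and 15.6 TPM in the KO libraries. For both genes the KO libraries were the higher ones in adipose tissue and the lower ones in spleen.

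Timp3, a metalloproteinase inhibitor held in the matrix, was at 1.25 and 117 TPM in KO adipose 2 and 3 and at 0.654 and 11.7 TPM in WT adipose 2 and 3, so the genotypes overlapped. Serpinf1 was at 6.57 and 11.6 TPM in the KO adipose libraries, against 0.305 and 0 TPM in the WT adipose libraries, and it was also seen in spleen, at up to 4.99 TPM in WT and 5.44 TPM in KO cells. Mmp2, a gelatinase, was at most 1.65 TPM in any library.

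Of the 4 IGF binding proteins, Igfbp5 and Igfbp6 were under 1 TPM outside KO adipose tissue, while Igfbp4 and Igfbp7 were seen in every library. Igfbp6 was at 269 and 746 TPM in KO adipose 2 and 3, at 0.0380 and 0.839 TPM in WT adipose 2 and 3, and at most 0.204 TPM in spleen. Igfbp5 was at 26.7 and 21.7 TPM in the KO adipose libraries and listed at 0 in the other 6. Igfbp4 was at 40.7 and 111 TPM in KO adipose 2 and 3, and at 105 and 47.8 TPM in WT adipose 2 and 3. Igfbp7 was at 97.2 and 167 TPM in the KO adipose libraries and at 85.3 and 113 TPM in the WT adipose libraries. For Igfbp4 and Igfbp7 the genotypes overlapped in adipose tissue. In the sequences above, Igfbp4, Igfbp5 and Igfbp6 held 1 CANNTG each and Igfbp7 none, so a match was found for genes of both patterns.

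The receptors for platelet-derived growth factor are widely used to sort fibroblasts and mural cells. Pdgfra was nearly absent, at 0.0339 TPM in KO adipose 3 and listed at 0 in the other 7 libraries. Pdgfrb reached 8.60 TPM in KO adipose 3 and was listed at 0 in KO adipose 2. Cadherin 11 (Cdh11), an adhesion molecule of mesenchymal cells, was at 16.2 and 10.5 TPM in KO adipose 2 and 3 and at or under 0.277 TPM elsewhere.

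Gelsolin (Gsn), which severs actin filaments, was at 24.2 and 71.4 TPM in KO adipose 2 and 3, and at 13.9 and 30.3 TPM in WT adipose 2 and 3, with overlap. The small heat shock protein Cryab was at 18.1 and 62.7 TPM in the KO and 0.392 and 0.0656 TPM in the WT adipose libraries, and listed at 0 in spleen.

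Other secreted members were at similar levels in both KO adipose libraries. Rarres2 (chemerin), an adipokine that attracts leukocytes, was at 262 and 401 TPM in the KO and 0 and 3.51 TPM in the WT adipose libraries. Fam180a was at 16.5 and 17.0 TPM and Dmkn at 8.98 and 14.8 TPM in KO adipose 2 and 3. Rarres2, Fam180a and Dmkn were listed at 0 in all 4 spleen libraries, and Fam180a and Dmkn in both WT adipose libraries too.

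The last 4 members are also known from mesothelium. Tm4sf1, a surface protein shared with endothelium, was at 11.5 and 294 TPM in KO adipose 2 and 3 and at 0 and 9.63 TPM in WT adipose 2 and 3. Rspo1, a Wnt signal enhancer, was at 13.1 and 17.3 TPM against 0 and 5.29 TPM. Aldh1a2, which makes retinoic acid, was at 5.72 and 17.9 TPM and listed at 0 in both WT adipose libraries. Lrrn4 was at 6.37 and 14.2 TPM against 5.64 and 3.20 TPM, so its KO and WT libraries lay close to each other.

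The label of a fibroblast gene group was checked against these values. Dcn, Igfbp6 and Efemp1 were high in both KO adipose libraries, while Pdgfra was listed at 0 or near it and Col1a1 was under 6 TPM. Of 20 other fibroblast markers, 7 were higher and 3 lower in both KO than in both WT adipose libraries. Over all tested genes these shares were 7.66% and 27.5%. The log2 fold change was positive for 15 of the 20 and negative for 3. Of the 11 tested, 1 was called higher, Gas1, beside 0.277% of all tested genes. Gas1 was at 32.4 and 23.1 TPM in KO adipose 2 and 3 and at most 0.0143 TPM in WT adipose 2 and 3. In KO adipose 2, 8 of the 20 were listed at 0, and in KO adipose 3, 2. Genes of mesothelium were present in the same libraries. Of 13 mesothelium markers that are not members, 11 were listed at 0 in each WT adipose library. Both KO adipose libraries lay above both WT adipose libraries for 11, beside 7.66% of all tested genes. Of the 11 tested, 5 were called higher, beside 0.277% of all tested genes. These 5, like Gas1, passed the filter only through the KO adipose libraries. The lists were also drawn up with earlier results of these data known, so nothing is read from these calls. The summed level of the 13 was 0.912 and 0.743 TPM in WT adipose 2 and 3 and 401 and 750.4 TPM in KO adipose 2 and 3. It was at most 8.22 TPM in spleen. Upk1b, a urothelial and mesothelial surface protein, was at 113 and 106 TPM and mesothelin (Msln) at 24.7 and 149.6 TPM in KO adipose 2 and 3, and both were listed at 0 in the other 6 libraries. The group is therefore called stromal matrix genes here and is not assigned to 1 cell type.

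The 2 KO adipose libraries were then set against each other, a difference that did not choose the members. With 1 library on each side there is no test. On the log2(TPM + 1) scale 36 members were higher in KO adipose 3 and 4 in KO adipose 2, with a median difference of 1.46, against 0.25 over all tested genes. The WT adipose libraries showed a median difference of 0.095 between experiments 3 and 2, with 24 members higher and 9 lower, against 0.016 over all tested genes.

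**Figure D2:**
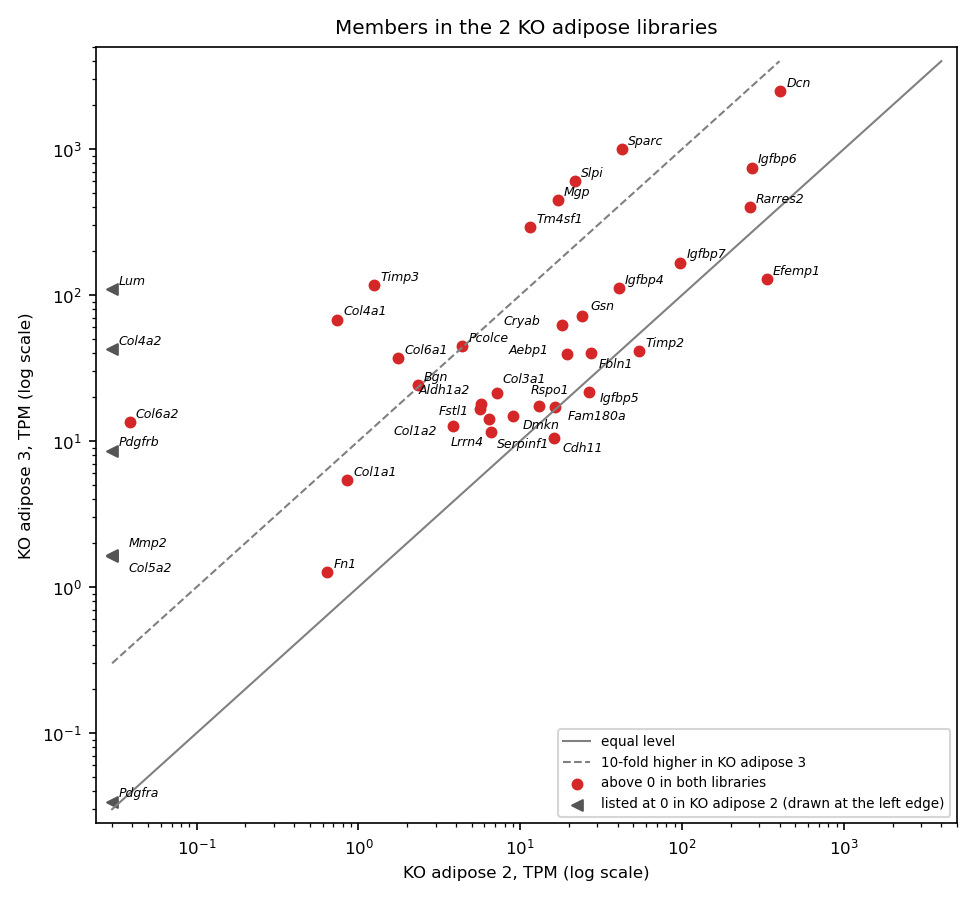
TPM of each member in KO adipose 3 (vertical, log scale) against KO adipose 2 (horizontal, log scale), with 6 members listed at 0 in KO adipose 2 drawn at the left edge. Efemp1, Timp2, Igfbp5 and Cdh11 lie below the line of equal level, while Sparc, Slpi, Mgp, Tm4sf1, Timp3, Col4a1 and both type VI chains lie above the line of 10-fold higher level.

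Members with a like level in both KO adipose libraries were Fam180a, 1.03-fold higher in KO adipose 3, Rspo1 (1.32-fold), Fbln1 (1.47-fold) and Rarres2 (1.53-fold). Efemp1 was 2.59-fold, Cdh11 1.54-fold, Timp2 1.32-fold and Igfbp5 1.23-fold higher in KO adipose 2. At the other end, KO adipose 3 was 351-fold higher for Col6a2, which was at only 0.0385 TPM in KO adipose 2. It was 93.6-fold higher for Timp3, 91.6-fold for Col4a1, 27.7-fold for Slpi, 26.4-fold for Mgp, 25.5-fold for Tm4sf1, 23.7-fold for Sparc, 20.8-fold for Col6a1, 10.4-fold for Bgn and 10.2-fold for Pcolce. Lum, Col4a2, Pdgfrb, Mmp2, Col5a2 and Pdgfra were listed at 0 in KO adipose 2, so no fold is given. Between these ends lay Dcn, 6.17-fold higher in KO adipose 3, Cryab (3.47-fold) and Igfbp6 (2.77-fold).

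The make-up of the group by role shifted accordingly. In KO adipose 2 the IGF binding proteins held 24.5% of the members' summed level, proteoglycans 22.9%, fibulins 20.3% and other secreted proteins 16.2%. In KO adipose 3 proteoglycans held 36.0%, matrix glycoproteins 20.1% (3.70% in KO adipose 2), IGF binding proteins 14.3%, proteases and inhibitors 10.6% and fibulins 2.31%. In the WT adipose libraries 75.7% and 51.4% of the sum came from the IGF binding proteins, nearly all of it from Igfbp4 and Igfbp7.

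Marker lists of other cell types moved with this difference. The 13 endothelial markers summed to 39.4 and 189 TPM in WT adipose 2 and 3 and to 16.4 and 1437 TPM in KO adipose 2 and 3. The tight junction gene Cldn5 was listed at 0 in both experiment 2 adipose libraries and was at 56.2 TPM in WT adipose 3 and 351 TPM in KO adipose 3. In KO adipose 2, 6 of the 13 were at 0, and in KO adipose 3 none. The 11 mural markers summed to 2.61 and 27.6 TPM in the WT and to 9.02 and 412 TPM in the KO adipose libraries, with 10 of 11 at 0 in KO adipose 2, Rgs5 and Kcnj8 among them.

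Adipocyte genes summed to 32.3 and 2286 TPM in WT adipose 2 and 3 and to 164 and 14549 TPM in KO adipose 2 and 3. Fabp4, which fat cells, endothelium and macrophages express, gave 1991 TPM in WT adipose 3 and 13591 TPM in KO adipose 3. In experiment 2 the sum rested mostly on Pparg, with 25.6 TPM in WT adipose 2 and 107 TPM in KO adipose 2. The 11 macrophage and monocyte genes summed to 9.41 and 21.0 TPM in WT adipose 2 and 3, and to 17.1 and 11199.5 TPM in KO adipose 2 and 3. The 11 T cell genes summed to 8769, 7217, 9293 and 3575 TPM in the same order. Endothelial, mural, adipocyte and macrophage sums were thus highest in KO adipose 3. Among the 7 endothelial markers above 0 in KO adipose 2 were Pecam1 at 6.96 TPM and Esam at 3.09 TPM. Pecam1 was also at 5.57 to 28.0 TPM in the spleen libraries, and its 38.2 TPM in WT adipose 2 made up nearly all of the endothelial sum there. The part of these cell types in the members' levels was not tested.

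Erythroid genes were higher in KO than in WT adipose tissue. The 7 genes of that list summed to 38.4 and 3798 TPM in WT adipose 2 and 3 and to 34706 and 65674 TPM in KO adipose 2 and 3. Of the 7, 5 were higher in both KO than in both WT adipose libraries, beside 7.66% of all tested genes. The fit called 0 of them, beside 0.277% of all tested genes called higher, and their median log2 fold change was 5.93. Klf1, an erythroid transcription factor, was listed at 0 in all 4 adipose libraries. In spleen the sum was 15716 and 46717 TPM in the WT and 1186 and 107834 TPM in the KO libraries, where the members summed to under 100 TPM. The part of erythroid RNA in the members' levels in adipose tissue was not tested. B cell genes summed to 27.1 to 56.1 TPM in the adipose libraries and 80.6 to 432 TPM in spleen, and the 7 regulatory T cell genes to 1362 to 2689.6 TPM in the adipose libraries and 3562 to 4718 TPM in spleen.

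**Figure D3:**
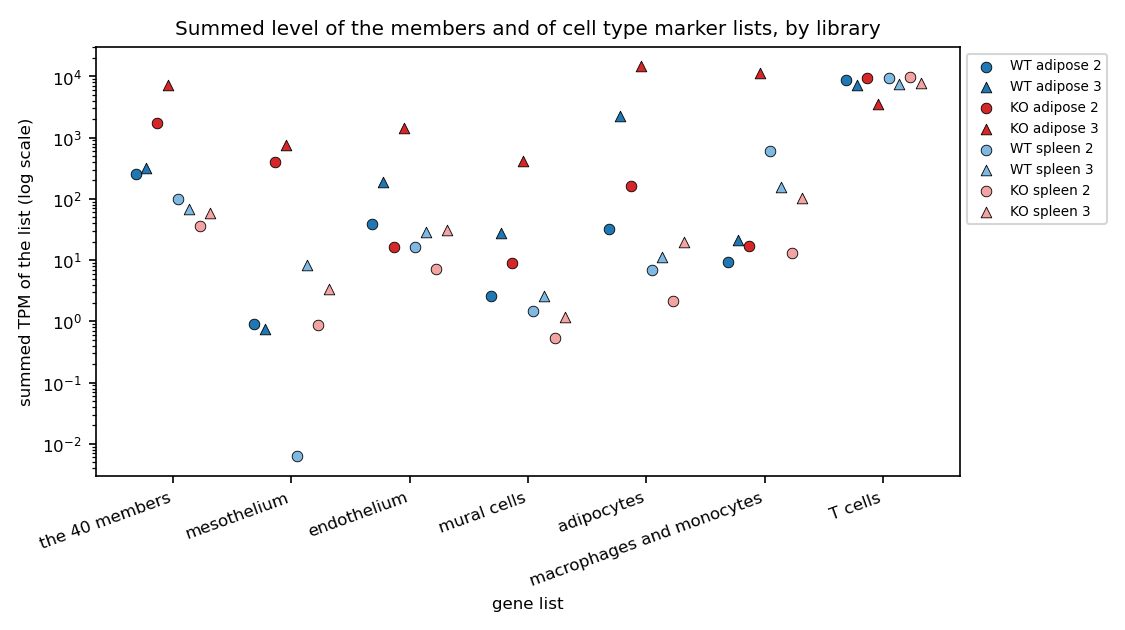
Summed TPM (log scale) of the 40 members and of 6 marker lists in each of the 8 libraries; circles are experiment 2 and triangles experiment 3. The members and the mesothelium list are high in both KO adipose libraries and highest in KO adipose 3. The endothelium, mural, adipocyte and macrophage lists are also highest in KO adipose 3.

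Within experiment 2, 33 members were higher, 1 lower and 6 equal in KO against WT adipose tissue, with a median difference of 2.18 on the log2(TPM + 1) scale. Within experiment 3 all 40 were higher, with a median of 3.98. The experiments thus shared the direction and differed in size. These counts describe the contrast that chose the members.

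In spleen, which did not enter the choice, the members were compared between KO and WT cells. Many of the 33 tested members passed the filter only through the KO adipose libraries, where they were high by choice. Such members were under 1 TPM in spleen and could hardly be called there. For them the fit cannot decide whether loss of Id2 moves the same genes outside fat. Of the 33, 0 were called by limma on log2(TPM + 1), against 0% of the 13376 genes. At an unadjusted p under 0.05 there were 64 genes and 0 members, and with the replicate number as a block 130 genes and 0 members. With the 4 spleen libraries alone these numbers were 268 and 1. The median log2 fold change of the members was 0, against -0.12 over all tested genes.

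Levels in spleen were low to begin with, since 34 of the 40 members were under 1 TPM in both WT spleen libraries and 11 were listed at 0 in both. Both KO libraries lay above both WT libraries for 1 member, Fbln1 (0.248 and 0.284 TPM against 0 and 0.156 TPM), against 5.93% of tested genes. They lay below for 7 members, against 13.9% of tested genes, and 6 of those 7 had been tested. The 7 were Timp2, Slpi, Igfbp6, Fn1, Fstl1, Mmp2 and Lrrn4, and only Timp2 and Slpi were above 1 TPM.

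Slpi had the largest difference in spleen among the members above 1 TPM, with a log2 fold change of -2.09 (SE 1.58, limma adjusted p = 1). It was -0.92 without KO spleen 2 and -3.25 without KO spleen 3. Timp2 had -0.98 (SE 1.07, limma adjusted p = 1). Both differences were within 2 SE. Igfbp4 was at 7.74 and 9.83 TPM in the WT and 10.1 and 9.50 TPM in the KO spleen libraries, a log2 fold change of 0.15 (SE 0.57). Igfbp7 had 8.06 and 2.99 TPM in the WT and 7.11 and 0.976 TPM in the KO libraries, and Gsn at 6.66 and 8.01 TPM against 2.67 and 13.6 TPM. For Igfbp4, Igfbp7 and Gsn the genotypes overlapped, and with an SE of 0.57 to 0.78 on the log2 scale, differences of that size were not detectable. Macrophage and monocyte genes were lower in both KO spleen libraries for all 11 genes of the list, beside 13.9% of all tested genes. Their sums were 615 and 157 TPM in the WT and 13.3 and 105 TPM in the KO libraries. The part of these genes' cells in the level of Slpi was not tested.

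The WT libraries were compared between tissues to describe the members in cells without the deletion. This contrast shares its WT adipose libraries with the one that chose the members, which are low there by choice. A low count of members higher in WT adipose tissue, and few calls, thus follow in part from the choice. Many tested members also passed the filter only through the KO adipose libraries. Of the 33 tested members 0 were called by limma, against 0.164% of tested genes (0.135% higher and 0.0299% lower), and 4 members and 1741 genes had an unadjusted p under 0.05. Both adipose libraries lay above both spleen libraries for 9 members, against 37.8% of tested genes. They lay below for 3 members, Slpi, Serpinf1 and Col1a2, against 15.1%. The median log2 fold change was 0.15, and 0.33 without the 11 members listed at 0 in both spleen libraries, against 0.32 over all tested genes.

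Igfbp7 and Igfbp4 had the smallest p-values among the members. Igfbp7 had 85.3 and 113 TPM in WT adipose 2 and 3 and 8.06 and 2.99 TPM in WT spleen, a log2 fold change of 4.04 (SE 0.71, limma adjusted p = 0.0829). Igfbp4 was at 105 and 47.8 TPM against 7.74 and 9.83 TPM, a log2 fold change of 2.88 (SE 0.57, limma adjusted p = 0.111). For both genes the tissues did not overlap in either genotype, and neither passed the threshold. With library quality weights both passed it (limma adjusted p = 0.0214 for each). Over 19 alternatives the adjusted p of Igfbp7 ranged from 0.0214 to 0.480 and that of Igfbp4 from 0.0214 to 0.756.

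**Figure D4:**
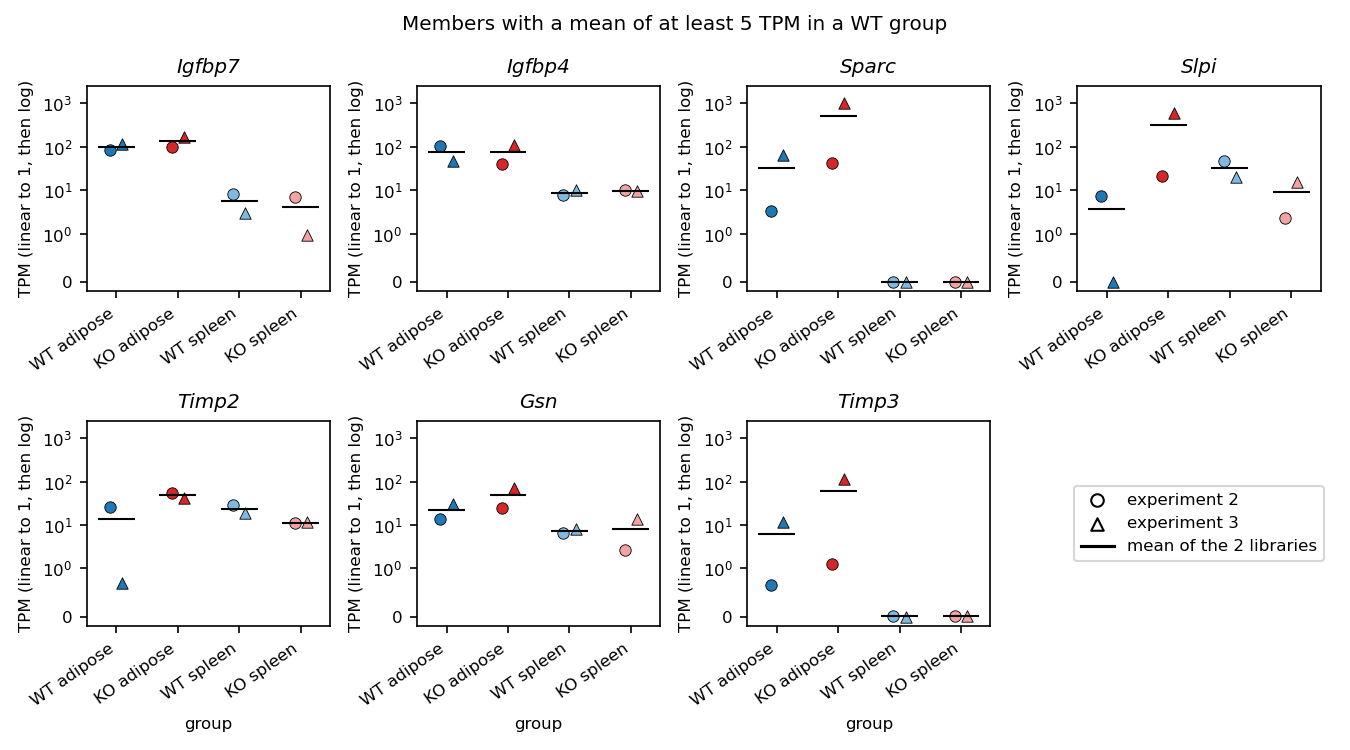
TPM of the 7 members whose mean reached 5 TPM in a WT group, by group (linear to 1 TPM, then log); points are libraries and bars the mean of 2. Igfbp7 and Igfbp4 are at 40.7 TPM or more in all 4 adipose libraries and at 10.1 TPM or less in all 4 spleen libraries.

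Other members with values in WT cells fell on either side. Gsn had 13.9 and 30.3 TPM in WT adipose 2 and 3 and 6.66 and 8.01 TPM in WT spleen (log2 fold change 1.38, SE 0.78, limma adjusted p = 0.483). Lrrn4 had 5.64 and 3.20 TPM in adipose tissue and 0.726 and 0.163 TPM in spleen (1.90, SE 0.60, limma adjusted p = 0.292). Slpi was lower in both WT adipose libraries, with a log2 fold change of -3.44 (SE 1.58, limma adjusted p = 0.401). Timp2 overlapped between tissues, because WT adipose 3 was at 0.698 TPM and WT adipose 2 at 26.6 TPM. Without WT adipose 3 its log2 fold change went from -1.82 to 0.19. Sparc, at 3.38 and 62.9 TPM in WT adipose tissue, was listed at 0 in spleen, so no fold is given (limma adjusted p = 0.334).

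In KO cells the tissues were farther apart, which is again a description because the KO adipose libraries chose the members. Both KO adipose libraries lay above both KO spleen libraries for 33 of the 40 members, 31 of them tested, against 22.1% of tested genes. Of the 33 tested members 15 were called higher, against 0.927% of tested genes called higher and 1.08% called in either direction. Igfbp7 and Lrrn4 were among the 15. The median log2 fold change was 3.55, and 2.99 without the 17 members listed at 0 in both KO spleen libraries, against 0.16 over all tested genes. Without the KO libraries of experiment 2, only KO replicate 3 was left in each tissue, so no calls are counted for that fit.

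Other matrix genes were taken from 9 lists that hold no member, with 159 genes in the table and 71 tested. In KO against WT adipose tissue 4 were called higher and 0 lower, beside 0.277% of all tested genes called higher. The 4 were the proteoglycan Ogn, the fibulin Fbln2, the complement inhibitor Serping1 and the growth arrest gene Gas1, named because it was called. All 4 were under 1 TPM outside KO adipose tissue, so they passed the filter only through the KO adipose libraries. The lists were drawn up with earlier results of these data known, and nothing is read from this count. Both KO libraries were above both WT libraries for 47 of the 159 and below for 5, beside 7.66% and 27.5% of all tested genes, and the median log2 fold change was 0.58. In spleen 0 were called in either direction, with 10 higher and 23 lower in both KO libraries, beside 5.93% and 13.9% of all tested genes, and a median of 0. In WT cells 0 were called between tissues, with 25 higher and 24 lower in both adipose libraries, beside 37.8% and 15.1% of all tested genes. The counts of higher and lower genes are over all 159, while the shares are over genes that passed the filter, as only 71 of the 159 did. The counts and shares are therefore not on the same footing.

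Single lists differed in which library held them. Ogn was at 13.3 and 31.7 TPM in KO adipose 2 and 3, Fbln2 at 8.82 and 13.4 TPM, and Serping1 at 111 and 213 TPM, each at or under 0.0306 TPM in the WT adipose libraries. Fibromodulin (Fmod) was at 24.9 and 6.47 TPM in the KO adipose libraries and listed at 0 in WT adipose tissue. Sparcl1, an endothelial relative of Sparc, reached 399.7 TPM in KO adipose 3 and, in WT adipose 3, 18.1 TPM, and was listed at 0 in both experiment 2 adipose libraries. Timp4 had the same pattern, with 186 and 42.3 TPM. The elastic fibre fibulin Fbln5 was at 1.81 and 49.4 TPM in the KO and 0 and 1.09 TPM in the WT adipose libraries.

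The other 36 collagen chains summed to 6.57 and 37.5 TPM in KO adipose 2 and 3, to 0.750 and 3.21 TPM in WT adipose 2 and 3, and to between 2.48 and 5.44 TPM in spleen. Only 1 of the 36 passed the filter. The 18 genes of collagen biosynthesis, several of which all cells use, summed to 1197 to 1259.9 TPM in the 4 adipose libraries and to 829 to 844 TPM in the 4 spleen libraries. Ppib was between 620 and 976 TPM in the 8 libraries, and P4hb was at 316 and 260 TPM in the WT and 156 and 288 TPM in the KO adipose libraries. Among fibroblast markers, Ly6a, Thy1 and Dpp4, which T cells also express, were above 13 TPM in all 8 libraries, while Cd34 was at 24.1 and 72.3 TPM in the KO and 0.455 and 4.10 TPM in the WT adipose libraries.

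Genes outside these lists and the marker lists whose levels followed the mean log2 level of the members most closely over the 8 libraries were Trem2 (Pearson r = 0.997), Gas6 (0.997), Pmp22 (0.996), Clec14a (0.992), Lmo1 (0.991), Csrp2 (0.990), Sgce (0.990), Hp (0.988), Rhoj (0.987) and Calml4 (0.987). They came from 9368 genes whose mean reached 5 TPM in some group. The correlations are a description over libraries of 4 groups that share these cells and preparations, and KO adipose 3 held the highest value of each of the 10 genes. Gas6, a ligand of TAM receptors, was at 27.9 and 313 TPM in KO adipose 2 and 3, at 0 and 1.05 TPM in WT adipose 2 and 3, and under 0.1 TPM in spleen. Trem2, a receptor of macrophages, was at 4.88 and 20.3 TPM in the KO and 0 and 0.534 TPM in the WT adipose libraries.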

How the data were processed

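RNA of CD4+ CD25+ T cells was measured in 8 libraries, 2 in each of 4 groups. The authors deposited 1 table of TPM values per gene; the unit was identified from the values, since each column sums to 1000000. The genome build was mm9, according to the submitters' processing notes. Aligner, counting tool and annotation: not given in the sources used here. Of 45232 names, 27 had become dates and were not named, and 21784 were at 0 in every library.

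The 13376 genes that reached 1 TPM in 2 or more libraries were fitted in limma 3.58.1 (R 4.3.3), with a variance trend, on log2(TPM + 1), with all 8 libraries and 4 group means. Benjamini-Hochberg adjustment ran over all tested genes, with a threshold of 0.05. This scale understates changes of low genes. Summaries were made in Python 3.11.15.

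The members and lists were chosen with earlier results of these data known. Every member may be named, with values by library where a group mean was at least 5 TPM. Of each other list up to 4 genes with the highest mean may be named, with the 10 genes nearest to the members and Id2 and Foxp3 as checks. Other genes were named after their values were seen. Lrrn4, Tm4sf1, Rspo1 and Aldh1a2 were kept out of the mesothelium list. Libraries with the same number deviated together, with r of 0.128 to 0.382 over the 6 pairs of groups, but each contrast has only 2 pairs. The replicate number was used as a block in an alternative. The other alternatives changed the pseudocount, the filter, the scaling, the variance model and the libraries, and leaving out both KO libraries of experiment 2 was added after seeing the data.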

Additional observations from a re-analysis of the deposited data

Results flagged for a closer look

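For Timp2 and Slpi both KO libraries lay above both WT libraries in adipose tissue and below them in spleen. Igfbp6, Fn1, Fstl1 and Lrrn4 had the same order, but were under 1 TPM in all 4 spleen libraries. The log2 fold change of Timp2 was 2.82 in adipose tissue and -0.98 in spleen, and that of Slpi was 5.33 in adipose tissue and -2.09 in spleen. The difference between the tissues was not tested, and both genes belong to the members chosen on the adipose contrast. WT adipose 3, at 0.698 TPM for Timp2 and 0 TPM for Slpi, was the lowest library for both genes.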

How the results depend on the processing

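In KO against WT adipose tissue the fit called 38 of all tested genes. This total was 18 with a filter at 5 TPM, 42 with no filter and 13 with a pseudocount of 0.1. With only the 4 libraries of the contrast it was 0. The total also changed with the library left out, so changes in the member count are not read as particular to the members. The count of 11 members called in this contrast became 4, 5, 1 and 0 with these 4 settings, in the same order. It ranged from 2 to 19 when 1 library was left out. For adipose tissue against spleen in KO, 15 became 9 with a filter at 5 TPM, 7 with no filter, 9 with a pseudocount of 0.1, 4 with only the 4 libraries of the contrast and 0 without both KO libraries of experiment 2, and ranged from 0 to 27 when 1 library was left out. Over all tested genes, 144 were called between tissues in KO. This total was 100 with the filter at 5 TPM and 63 with no filter. It was 70 with the pseudocount of 0.1 and 12 with only the 4 libraries of the contrast. In WT, 0 members became 2 (Igfbp4 and Igfbp7) with library quality weights, while the total of genes called went from 22 to 219. With the replicate number as a block, 11 were called in KO against WT adipose tissue, 17 between tissues in KO, 0 between tissues in WT and 0 in KO against WT spleen. The pairing thus added 2 calls, Sparc and Aldh1a2, between tissues in KO, where the total of genes called went from 144 to 236. None of the 19 alternatives called a member in KO against WT spleen.

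The median of 3.36 was 5.25 and 1.69 with pseudocounts of 0.1 and 5, and 2.14 to 4.21 with 1 library left out. That of 3.55 was 6.17 and 1.99 with these pseudocounts, and 2.27 to 4.49 with 1 library left out. That of 0.15 was 0.33 with a pseudocount of 0.1, and 0 to 0.19 with 1 library left out.

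Single genes changed direction in spleen. Gsn went to 0.81 without KO spleen 2, also with both KO libraries of experiment 2 left out, and ranged from -1.18 to 0.81. Igfbp4 ranged from -0.0051 to 0.30 when 1 library was left out and Igfbp7 from -1.61 to 0.43, with 0.0054 without WT spleen 2. Timp2 between tissues in WT ranged from -3.83 to 0.19, the last without WT adipose 3. Where a library was left out, the lone one was assumed to vary like the other groups. The cause of these changes was not tested. With no read depth in TPM, how far counting error limits low values is unknown.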
